A study of Mus musculus with 3 samples.

Results

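The 36 genes described here make up a list of autophagy and lysosome genes, selected by symbol. All 36 were found by symbol in the annotation, among 55536 genes in the table and 22028 protein-coding genes. By role, the list holds 22 autophagy genes, 2 transcription factor genes that control both systems, and 12 lysosomal genes. Polyadenylated RNA was sequenced from primary mouse cells labelled activated regulatory T cells, the Foxp3-dependent CD4 T cells that restrain immune responses. The donor was a male mouse aged 9 weeks, of a strain carrying the Foxp3GFP-DTR, CD4CreERT2 and R26tdTomato alleles: a Foxp3 reporter, an inducible Cre under Cd4 control and a Cre-dependent reporter. The single group comprised 3 libraries, labelled as technical replicates 1, 2 and 3 of 1 biological replicate, and the means of activation is not stated in the labels. With 1 group there was no contrast between conditions, so levels are described and the libraries are compared with one another.

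Autophagy encloses a portion of the cytoplasm in a double membrane, the autophagosome, and delivers it to the lysosome for breakdown. A protein kinase complex starts the process, a lipid kinase complex marks the membrane, and a ubiquitin-like conjugation system attaches proteins of the ATG8 family (the LC3 and GABARAP proteins) to it. Receptors tether cargo to ATG8 proteins, and acid hydrolases such as the cathepsins digest it. In regulatory T cells, autophagy is known to support lineage stability and survival.

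The depth of replicates 1, 2 and 3 was 20783676, 21206219 and 18496690 estimated counts. A count of 0 therefore allows a level no higher than 0.144, 0.141 and 0.162 CPM (a count scaled for depth, not length) in the 3 libraries, a limit that covers counting error only. Markers of the labelled cell type were present: Foxp3 was at 90.1 ± 6.76 TPM (a transcript level scaled for length and depth; SD, n = 3), and 7 of 8 T cell markers reached 1 TPM in every library, the exception being Cd8a. Summed over 16 myeloid markers, the level was 82.0, 55.6 and 85.4 TPM in replicates 1, 2 and 3, and 8 of the 16 averaged under 1 TPM. Summed over 8 T cell markers it was 9226, 8411 and 9374 TPM. Red blood cell markers, 6 in all, summed to 910.4, 1272 and 1148 TPM, and 8 B cell markers to 63.3, 63.8 and 72.8 TPM. Every SD is taken over the 3 libraries of 1 biosample, so SDs and p-values measure only the spread between those libraries, which may be technical.

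The transcription factors TFEB and TFE3 act on many lysosomal and autophagy genes through an E-box element in their promoters, so the windows around the members' start sites were searched for its letters, TCACGTGA, and for the core, CACGTG. Both motifs read the same on either strand, and the longer one contains the shorter. RefSeq promoter windows on GRCm38.p6, running from 250 bases before to 50 bases after the start, were matched for 30 of the 36 genes, giving 35 windows. Becn1, Pik3c3, Atg12, Atg16l1, Map1lc3a and Ctsb had no entry. The full element was present in 3 of the 35 windows (8.57%), those of Atg3, Ctsa and Ctsd, against 320 of all 32851 windows (0.974%). The core was present in 7 of the 30 genes (23.3%), adding Atg5, Atg7, Ctsl and Lamp1, against 8.09% of all 27025 genes with a window. The lines below show the stretches of these promoters that hold the full element, and the Lamp1 stretch with 4 copies of the core in 81 bases; capitals mark the motif. A match describes letters in a window and was not tested as a binding site.
Atg3, chr16:45158715-45158784, plus strand: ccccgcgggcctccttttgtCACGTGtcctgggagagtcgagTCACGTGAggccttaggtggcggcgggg
Ctsa, chr2:164833750-164833772, plus strand: gagcaaactgTCACGTGAtgcag
Ctsd, chr7:142387909-142387936, minus strand: cgcccgcgtcTCACGTGAcccgttgagg
Lamp1, chr8:13159080-13159160, plus strand: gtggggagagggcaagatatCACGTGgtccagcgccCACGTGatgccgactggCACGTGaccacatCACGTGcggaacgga

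Carriers of the core motif were found at both ends of the range of levels. Ctsd was the third highest of the 36 genes, at 384 ± 46.9 TPM, while Lamp1, with the most copies, was at 7.18 ± 0.301 TPM. The Ctsa window held a second copy of the full element beginning at base 5 from its RefSeq start. That start lies inside the gene: the printed stretch begins at 164833750, and the leading transcript Ctsa-202 at 164832873. The Atg7 match, within 114670954 to 114670979 of chromosome 6, also lies inside its gene, where the leading transcript Atg7-210 begins at 114643127. Both matches thus lie away from the start of the leading transcript. In Atg3 the core and the full element began 94 and 72 bases before the start.

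Transcripts of nearly the whole list were detected. Levels of 1 TPM or more in every library were reached by 35 of the 36 genes, and 12 genes averaged at least 100 TPM. The median over the 36 genes was 44.8 ± 2.38 TPM (SD, n = 3), beside 26.05 ± 0.831 TPM over the 10425 protein-coding genes at 1 TPM or more in every library. Lysosomal genes led: the 12 lysosomal genes had a median of 118 ± 1.36 TPM and the 22 autophagy genes 35.4 ± 1.54 TPM. Of the 35 pairs of neighbours in the order of mean level, 19 had overlapping ranges over the libraries and 16 did not, so the order within close groups is not resolved.

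**Figure D1:**
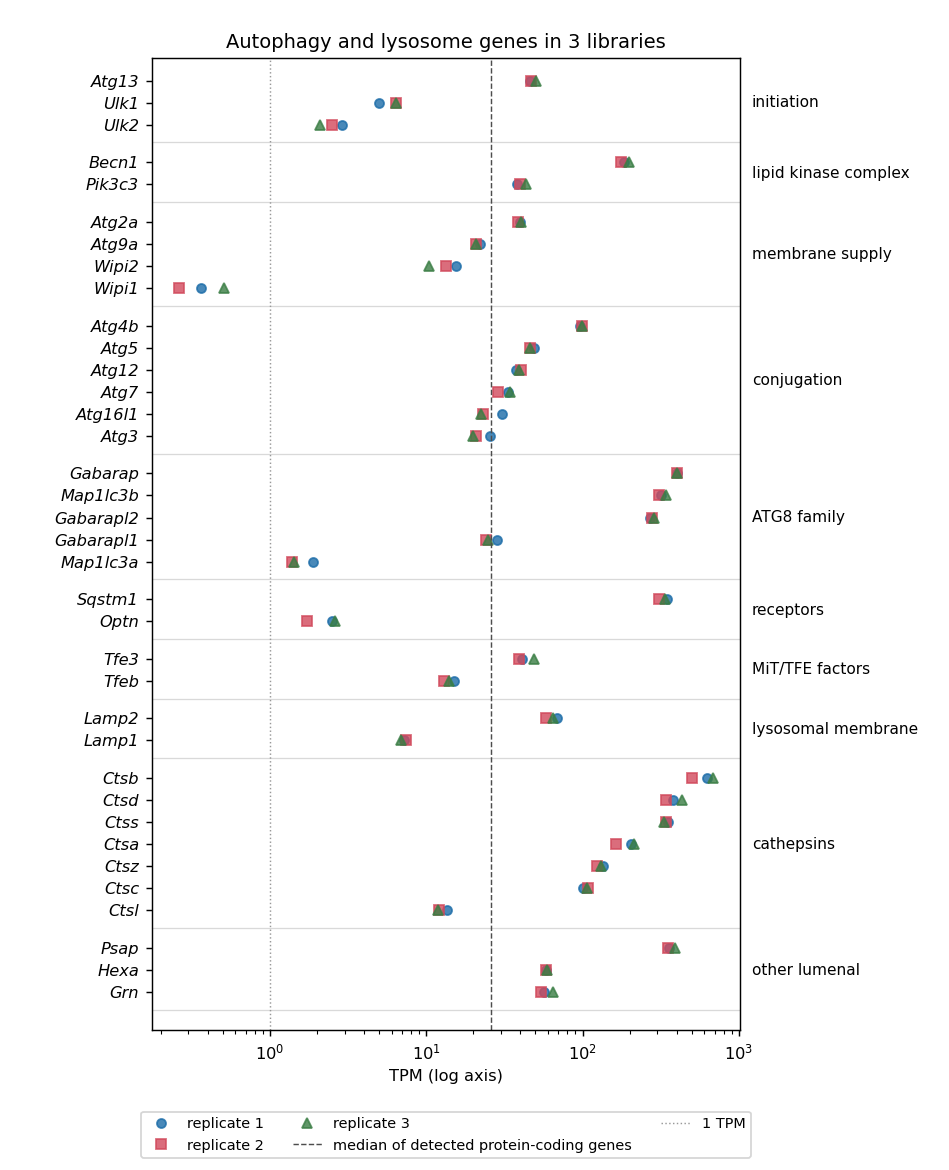
Level of each gene in TPM (log axis), by role, with 1 symbol per library; the dashed line is the median of detected protein-coding genes (26.05 TPM) and the dotted line 1 TPM. The cathepsins, apart from Ctsl, and 3 of the 5 ATG8 genes lie above 100 TPM, and Wipi1 is the only gene under 1 TPM.

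Genes of the initiation complex were unevenly expressed. Atg13, the regulatory subunit that bridges the kinase to its scaffold, was at 46.1, 47.1 and 50.05 TPM in replicates 1, 2 and 3. Ulk1, the kinase that starts autophagy, was at 5.0, 6.43 and 6.40 TPM. Ulk2, its close relative, was at 2.89, 2.51 and 2.09 TPM. Both kinases lay below Atg13 in every library, and Ulk1 exceeded Ulk2 by a mean of 1.25 ± 0.42 on the log2 scale of TPM. With protein-coding transcripts only, that difference was 0.70 ± 0.35, and 0.30 in replicate 1.

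The lipid kinase complex was well represented. Becn1, its regulatory subunit beclin 1, was at 185, 177.5 and 199 TPM in replicates 1, 2 and 3. Pik3c3, the catalytic subunit that makes phosphatidylinositol 3-phosphate, was at 38.1, 39.8 and 43.3 TPM. Both were highest in replicate 3, and the difference of Becn1 over Pik3c3 was 2.21 ± 0.06 on the log2 scale of TPM. With protein-coding transcripts only, the direction turned: Becn1 was at 27.5, 23.5 and 19.0 TPM and Pik3c3 at 35.2, 35.5 and 41.5 TPM, a difference of -0.70 ± 0.39. Most of the Becn1 level was assigned to transcripts not annotated as protein-coding. Of the coding transcripts, Becn1-204, only 375 bases long and wholly shared with the coding Becn1-217, was highest at 15.0 ± 2.91 TPM. Becn1-205, with the longest coding sequence (1344 bases), was at 0.567 ± 0.430 TPM. The leading non-coding transcript, Becn1-201, shares 70.3% of its bases with Becn1-217. Reads on shared bases are divided by estimation, so the coding level of Becn1 is uncertain.

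Membrane supply and the sensing of the lipid mark were covered by 4 genes. Atg2a, a lipid transfer protein, was at 39.6 ± 0.851 TPM, and Atg9a, the scramblase of the vesicles that seed the membrane, at 21.3 ± 0.719 TPM. Of the pair of proteins that bind phosphatidylinositol 3-phosphate, Wipi2 was at 15.6, 13.3 and 10.5 TPM in replicates 1, 2 and 3. Its relative Wipi1 was the lowest gene of the list, at 0.360, 0.260 and 0.510 TPM. Wipi2 thus lay above Wipi1 in every library, by 5.16 ± 0.70 on the log2 scale of TPM.

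The 6 genes of the conjugation machinery lay between 22.1 and 98.1 TPM. Atg4b, the protease that processes ATG8 proteins, was highest at 98.1 ± 1.73 TPM (SD, n = 3), but was at 25.2 ± 3.03 TPM with protein-coding transcripts only, below Atg5, Atg7 and Atg12 (47.1, 30.6 and 26.7 TPM). Atg5 and Atg12, which are joined to each other, were at 47.1 ± 1.34 and 39.0 ± 1.35 TPM. The E1-like enzyme Atg7 was at 32.3 ± 2.95 TPM and the E2-like enzyme Atg3 at 22.1 ± 2.92 TPM. Atg16l1, the third member of the Atg5 and Atg12 complex, which places it on the membrane, was at 25.2 ± 4.51 TPM. Apart from Atg4b, the whole-gene levels lay between 22.1 and 47.1 TPM.

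Among the ATG8 genes, 3 made up nearly all of the summed level. Gabarap was at 404, 403 and 403 TPM in replicates 1, 2 and 3, nearly the same level in each library. Map1lc3b, the gene of LC3B, was at 316, 309 and 342 TPM. Gabarapl2 was at 271, 277 and 288 TPM. Gabarap, Map1lc3b and Gabarapl2 took 39.1 ± 0.948%, 31.2 ± 0.965% and 27.0 ± 0.393% of the family's TPM. With protein-coding transcripts only, the same 3 genes took 40.3 ± 0.685%, 46.6 ± 1.69% and 9.34 ± 0.839%, so that Map1lc3b led. Gabarapl1 took 2.5 ± 0.239% at 25.8 TPM, and Map1lc3a, the gene of LC3A, 0.152 ± 0.0281% at 1.56 TPM. The summed GABARAP genes exceeded the summed LC3 genes by 1.13 ± 0.06 on the log2 scale of TPM, a ratio of 2.19. That ratio was not stable to the choice of transcripts or table: it was 0.20 ± 0.10 on the log2 scale with protein-coding transcripts only and 3.56 from counts per kilobase in the second gene table.

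Cargo receptors differed widely in level. Sqstm1, the receptor p62 that carries ubiquitinated cargo, was at 349, 307 and 339 TPM in replicates 1, 2 and 3. Optn, the receptor optineurin, was at 2.49, 1.72 and 2.60 TPM. Sqstm1 exceeded Optn by 7.21 ± 0.24 on the log2 scale of TPM, and both were lowest in replicate 2.

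Tfe3 was the more abundant of the transcription factor genes. It was at 40.8, 39.2 and 48.8 TPM in replicates 1, 2 and 3. Tfeb was at 15, 13.0 and 13.9 TPM. The difference of Tfe3 over Tfeb was 1.62 ± 0.18 on the log2 scale of TPM, and 1.33 ± 0.06 with protein-coding transcripts only. The TPM of Tfe3 was highest in replicate 3, whereas its CPM varied by a ratio of only 1.07 between libraries. In replicate 3 a processed transcript of 372 bases, Tfe3-209, took 15.3% of the gene's TPM, beside 0 and 0.0255% in replicates 1 and 2.

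Of the paired lysosomal membrane proteins, Lamp2 far exceeded Lamp1. Lamp2 was at 68.9, 58.6 and 64.4 TPM in replicates 1, 2 and 3, and Lamp1 at 7.2, 7.47 and 6.87 TPM. The ranges did not overlap, and the difference of Lamp2 over Lamp1 was 3.15 ± 0.16 on the log2 scale of TPM, a ratio of 8.89. It was 3.14 ± 0.14 with protein-coding transcripts only. Lamp1 (ENSMUSG00000031447.7) lies on chromosome 8 of mm10 at 13159161 to 13175338, and Lamp2 (ENSMUSG00000016534.15) on chromosome X at 38401357 to 38456454.

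The cathepsins included the highest gene of the list. Ctsb, a cysteine protease (ENSMUSG00000021939.8, chromosome 14 at 63122462 to 63145923), was at 624, 502 and 689 TPM in replicates 1, 2 and 3. Ctsd, the aspartic protease (ENSMUSG00000007891.16, chromosome 7 at 142375911 to 142388038), was at 378, 341 and 434 TPM. Both were lowest in replicate 2 and highest in replicate 3. Ctss, the cysteine protease known for processing the invariant chain in antigen-presenting cells, was at 351, 343 and 331 TPM, with the lowest value in replicate 3. Ctsa, a serine carboxypeptidase that also protects other lysosomal enzymes, was at 205, 165 and 213 TPM. The carboxypeptidase Ctsz was at 131 ± 5.78 TPM, and Ctsc, the dipeptidyl peptidase that activates granule serine proteases, at 106 ± 4.08 TPM. Ctsl, the cysteine protease closely related to Ctss, was at 13.7, 12.03 and 11.9 TPM and lay apart from the other 6. Ctss exceeded Ctsl by 4.77 ± 0.08 and Ctsb exceeded Ctsl by 5.58 ± 0.24 on the log2 scale of TPM. Ctsb supplied 34.0 ± 2.30% of the summed cathepsin TPM, Ctsd 21.6 ± 0.909% and Ctsl 0.710 ± 0.0777%. With protein-coding transcripts only the order turned, with 13.8 ± 1.10% for Ctsb, 29.5 ± 1.94% for Ctsd and 26.4 ± 2.13% for Ctss. The difference of Ctsb over Ctsl was then 4.08 ± 0.33 on the log2 scale.

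The remaining lumenal proteins were also expressed. Psap, the precursor of the saposins that help degrade sphingolipids, was at 359.9, 354 and 388 TPM in replicates 1, 2 and 3. Hexa, the alpha subunit of beta-hexosaminidase, was at 58.8 ± 0.611 TPM. Grn, the gene of progranulin, was at 56.4, 54.1 and 64.3 TPM. Psap and Grn were highest in replicate 3, while the SD of Hexa was the smallest of these genes.

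Whether the libraries differed beyond counting noise was tested per gene with a chi-square test of homogeneity on estimated counts against library totals, with Benjamini-Hochberg adjustment over 14641 genes. The libraries differed for 18 of the 35 genes of the list that were tested, or 51.4%, beside 44.9% of all genes tested. Among genes averaging at least 100 counts, 18 of 33 members (54.5%) differed, beside 55.4% of 9956 genes. The share was thus near the background, and the median ratio of the highest to the lowest library CPM was 1.10 for these 33 members and 1.15 for the 9956 genes. Genes that differed and were lowest in replicate 2 under 3 scalings made up 8 of the 33 members (24.2%), beside 18.8% of the 9956 genes. Those that differed and were highest in replicate 3 made up 9 of the 33 (27.3%), beside 16.4%, and 5 of the 33 (15.2%) met both, beside 10.4%. In bulk RNA, fewer cells of a type and less RNA per cell cannot be told apart.

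Among the 18 that differed, the largest ratios were those of Wipi2, Ulk1, Ctsl, Atg16l1, Ctsb and Atg3. Wipi2 was at 37.2, 31.1 and 25.8 CPM in replicates 1, 2 and 3, a ratio of 1.44 (chi-square test, adjusted p = 1.67e-08). Ulk1 was at 9.19, 12.6 and 11.7 CPM, a ratio of 1.38 (adjusted p = 0.00818). Ctsl was at 10.5, 7.82 and 8.92 CPM, a ratio of 1.34 (adjusted p = 0.0377). Wipi2 and Ctsl were highest in replicate 1, whereas Ulk1 was lowest there. Atg16l1 was at 43.5, 37.2 and 32.9 CPM, a ratio of 1.32 (adjusted p = 2.79e-06). Ctsb was at 778, 636 and 826 CPM, a ratio of 1.30 (adjusted p = 9.46e-114). Atg3 was at 32.5, 27.5 and 25.6 CPM, a ratio of 1.27 (adjusted p = 5.77e-04). Wipi2, Atg16l1 and Atg3 shared the order of the libraries, with replicate 1 highest and replicate 3 lowest.

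By role, 8 of 12 lysosomal genes differed between libraries and 9 of 21 autophagy genes tested. The share was 44.9% of all genes tested and 55.4% of genes averaging at least 100 counts. Each of the lysosomal genes averaged at least 100 counts. Of the 7 cathepsins, 5 differed, and 4 of the 7 differed and were lowest in replicate 2, beside 18.8% of genes averaging at least 100 counts. Whether the roles differ from each other was not tested. Ctsd was at 473, 439 and 545 CPM (ratio 1.24, chi-square test, adjusted p = 5.08e-50), and Ctsa at 262, 227 and 275 CPM (ratio 1.21, adjusted p = 3.68e-20). The summed cathepsin level was 1809, 1596 and 1917 TPM in replicates 1, 2 and 3, the same order of libraries as the summed myeloid markers and the summed T cell markers given above. The 6 regulatory T cell markers ran in another order, summing to 2961, 2834 and 2717 TPM, with 5 of the 6 differing and lowest in replicate 3. Red blood cell markers, summing to 910.4, 1272 and 1148 TPM, were highest in replicate 2, where 5 of the 6 differed and were highest. Of the 9956 genes averaging at least 100 counts, 1835 differed and were lowest in replicate 3, and 1713 differed and were highest in replicate 2. Among the myeloid markers, C1qb was at 22.1, 11.7 and 21.2 TPM and Csf1r at 9.14, 5.48 and 9.66 TPM, while S100a8 had no count in any library. Of 12 myeloid markers tested, 7 differed, beside 44.9% of all genes tested, and 6 differed and were lowest in replicate 2, beside 15.7%. Of 8 T cell markers tested, 6 differed, and 5 differed and were lowest in replicate 2. Beside these stand the same shares of all genes, and 55.4 and 18.8% of genes averaging at least 100 counts. The median T cell marker was at 1099 TPM and the median myeloid marker at 1.03 TPM, and a count test calls more genes at higher counts. The part of other cells in the cathepsin differences was not tested.

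Few of these calls held under every alternative. Ctsb, Ctsd and Wipi2 kept the same call under all 10 alternatives, while 15 of the 18 lost it under at least 1. The count was 10 of 34 tested without replicate 1, 12 of 35 without replicate 2 and 14 of 35 without replicate 3. Over all genes tested, the share that differed fell as well, to 30.3, 27.7 and 34.0% in that order. In the second gene table, which held 29.3 to 31.1% as many counts, 5 of 34 members differed, beside 23.2% of all genes tested there. Those 5 were Ctsb, Ctsd, Ctsa, Pik3c3 and Wipi2. In that table Ctsb was at 320, 317 and 347 CPM in replicates 1, 2 and 3, and Ctsd at 345.2, 345.1 and 381 CPM. Both had a ratio of 1.10 there, and their levels in replicates 1 and 2 were close. Ctsa stayed lowest in replicate 2, at 338, 322 and 364 CPM. Without replicate 2, Ctsa had a ratio of 1.05 and did not pass (adjusted p = 0.0652, chi-square test, the highest over its 10 alternatives, with a lowest of 1.98e-20). Ctsl did not pass with TMM scaling (adjusted p = 0.0517, chi-square test), and its adjusted p ranged between 0.016 and 0.406 over the alternatives. Ulk1 and Ctsl did not pass without replicate 1 or without replicate 2, and Atg3 and Atg16l1 did not pass without replicate 1.

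**Figure D2:**
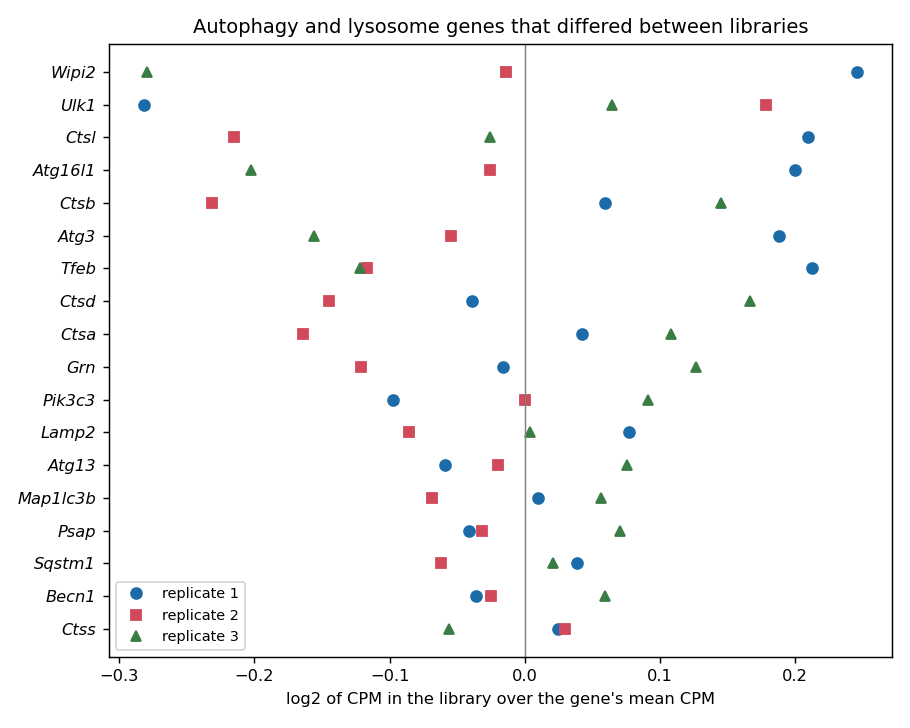
The 18 genes whose libraries differed, ordered by the ratio of highest to lowest CPM, each point being the log2 of the CPM in 1 library over the gene's mean CPM. Replicate 2 is the leftmost point for Ctsb, Ctsd and Ctsa, and replicate 1 the rightmost for Wipi2, Atg16l1 and Atg3.

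The deposited second gene table gave other levels for several genes. Its mean CPM was divided by that of the larger table over the 9233 genes averaging at least 100 counts in the larger one, with a median of 1.55, a 5% point of 0.237 and a 95% point of 2.68. Gabarapl2 had 32, 34 and 34 counts in the second table, against 3315, 3539 and 3018 estimated counts in the larger one. Its CPM ratio was 0.0337, and 1.17% of genes were at or below it. Map1lc3b had 100, 107 and 99 counts in the second table, against 6009, 5805 and 5522 estimated counts in the larger one, a CPM ratio of 0.0585. The levels of Gabarapl2 and Map1lc3b are therefore uncertain. Reads that fit several places are divided among genes in the larger table, and how the second table treated them is not stated. The next lowest ratios were those of Atg12 (0.380), Ctsb (0.439) and Gabarap (0.569).

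**Figure D3:**
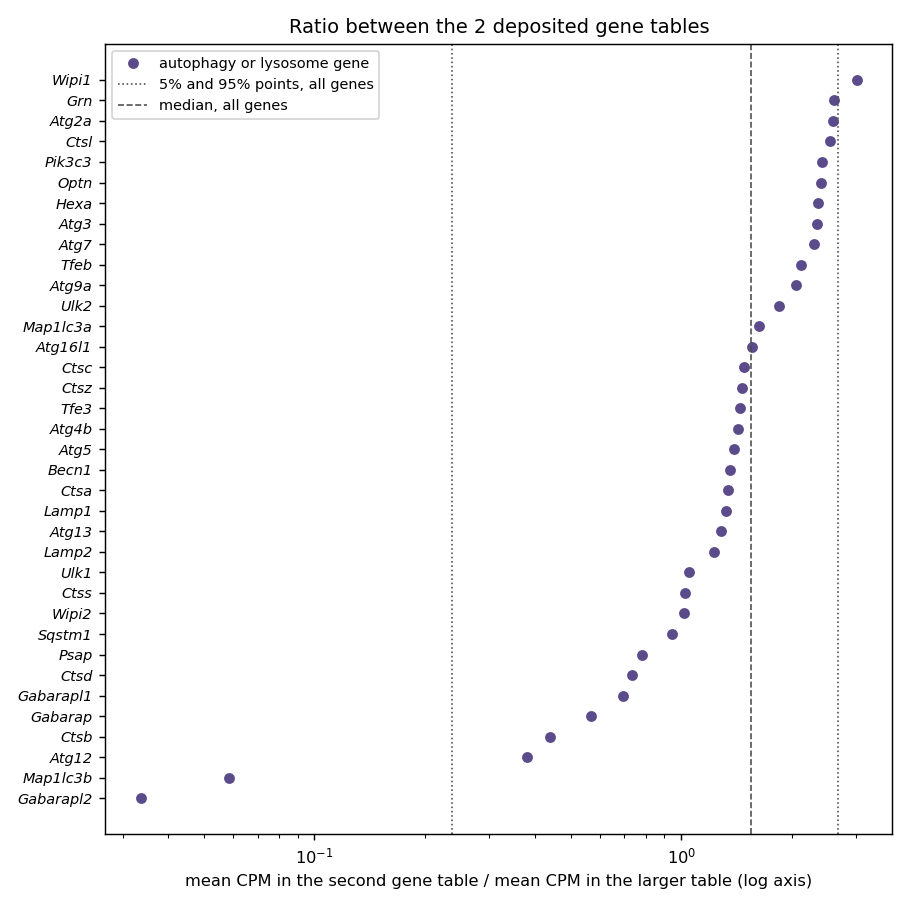
Mean CPM in the second gene table divided by mean CPM in the larger gene table (log axis) for the 36 genes, with the median (1.55) and the 5% and 95% points of 9233 genes as vertical lines. Gabarapl2 (0.0337) and Map1lc3b (0.0585) lie left of the 5% point of 0.237, and Wipi1 lies right of the 95% point of 2.68. Wipi1 had only 7, 8 and 6 estimated counts in replicates 1, 2 and 3, whereas the 9233 genes averaged at least 100.

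The transcript tables divided each gene's level among its annotated transcripts. In 31 of the 36 genes, over 50% of the TPM was assigned to protein-coding transcripts, by the mean of 3 libraries. The exceptions were Ctsb, Atg4b, Gabarapl2, Becn1 and Map1lc3a. Ulk1 lay close to the line, at 49.6, 53.6 and 49.2% in replicates 1, 2 and 3. The number was 30 without replicate 2 and 32 by estimated counts. For Becn1, protein-coding transcripts had 12.6 ± 2.72% of TPM and 5.78 ± 2.39% of estimated counts. Its leading transcript, Becn1-201, annotated for nonsense-mediated decay, had 50.6 ± 2.19% of TPM. For Gabarapl2, the coding share was 22.9 ± 2.23% of TPM, and the retained-intron transcript Gabarapl2-203 had 76.9 ± 2.27%. Atg4b had a coding share of 25.7 ± 3.57% of TPM and 46.3 ± 3.35% of counts. No count was assigned to the single protein-coding transcript of Map1lc3a in any library.

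Ctsb depended most on the unit. Its retained-intron transcript Ctsb-202, 801 bases long, had 69.8 ± 0.997% of the gene's TPM and 27.3 ± 0.992% of its estimated counts. The protein-coding Ctsb-201, 4743 bases long, had 29.7 ± 1.07% of TPM and 72.4 ± 1.05% of counts. Of the bases of Ctsb-202, 88.6% are shared with Ctsb-201, and reads on shared bases are divided by estimation. With protein-coding transcripts only, Ctsb was at 179.5 ± 24.9 TPM, 7th of the 36 genes, and Ctsd (384 TPM), Psap (367 TPM), Ctss (341 TPM) and Sqstm1 (318 TPM) led. The median of the list was then 35.1 ± 0.730 TPM.

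**Figure D4:**
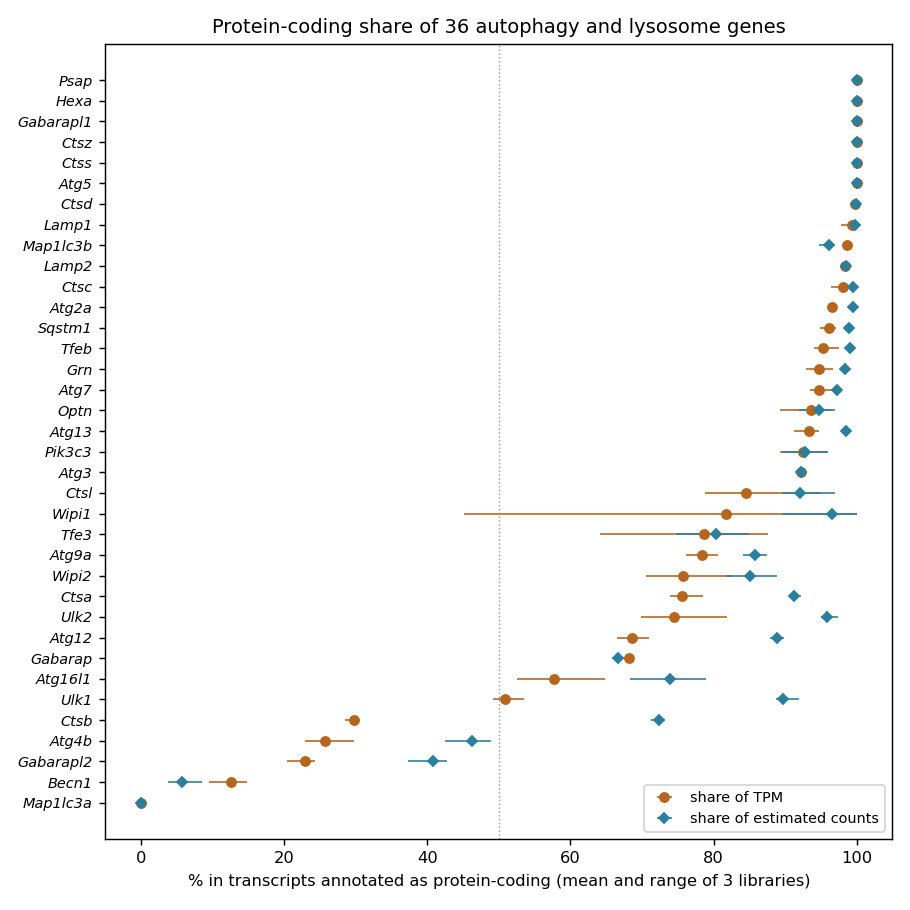
Share of each gene's TPM (circles) and estimated counts (diamonds) in transcripts annotated as protein-coding, with the mean and the range of 3 libraries; the dotted line marks 50%. Ctsb lies at 29.7% of TPM and 72.4% of counts, and 5 genes lie left of the line by TPM.

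Lamp2 transcripts end in alternative versions of exon 9, which encode the transmembrane segment and cytoplasmic tail. The tail of LAMP-2A is known for its role in chaperone-mediated autophagy, in which single proteins cross the lysosomal membrane. Lamp2-202, with the tail of LAMP-2B, had 58.0, 61.1 and 59.5% of the gene's TPM in replicates 1, 2 and 3. Lamp2-201, with the tail of LAMP-2A, had 40.3, 37.0 and 37.9%. Lamp2-203, with the tail of LAMP-2C, had 0.610, 0.392 and 0.590%. The order of the 3 transcripts was the same in each library. By estimated counts, Lamp2-202 and Lamp2-201 had 74.7 and 23.3%. The coding parts of the 3 versions of exon 9, each with its stop codon, are printed below because their letters are what separates the transcripts; capitals mark the last 5 codons and the stop codon, and the intervals, on mm10, leave out the stop codon.
Lamp2-202, chrX:38421715-38421851, minus strand: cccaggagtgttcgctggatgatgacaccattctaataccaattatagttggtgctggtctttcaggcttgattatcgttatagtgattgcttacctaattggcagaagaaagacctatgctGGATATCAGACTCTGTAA
Lamp2-201, chrX:38405435-38405571, minus strand: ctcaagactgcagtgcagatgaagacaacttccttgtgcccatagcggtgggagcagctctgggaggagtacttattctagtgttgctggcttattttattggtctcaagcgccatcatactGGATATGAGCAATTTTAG
Lamp2-203, chrX:38402142-38402281, minus strand: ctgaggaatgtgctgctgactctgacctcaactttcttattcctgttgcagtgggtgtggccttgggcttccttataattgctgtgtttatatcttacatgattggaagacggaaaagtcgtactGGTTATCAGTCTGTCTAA

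Other members were divided among protein-coding transcripts. Psap-203 had 63.9 ± 5.52% of TPM and Psap-202 34.5 ± 6.82%. They differ in their first exon, at 60284461 to 60284531 and 60277627 to 60277782 of chromosome 10 on mm10. Ctsd-201 and Ctsd-202 had similar shares, 51.4 ± 2.16% and 48.3 ± 1.98% of TPM, and their order was turned round in replicate 2. For Gabarap, Gabarap-202 had 54.6 ± 1.03% and the retained-intron transcript Gabarap-204 31.6 ± 0.725%. Atg16l1-202 had 31.8 ± 3.69% and Atg16l1-201 25.9 ± 2.71% of TPM. Atg16l1-201 carries an additional exon 8 of 57 bases, at 87774813 to 87774869 of chromosome 1, and has a coding sequence of 1821 bases, against 1764 bases in Atg16l1-202. The pair also differs at the ends, with Atg16l1-201 beginning at 87756013 and Atg16l1-202 at 87756076. This exon is shown because it is what the coding sequences of the pair differ by. Capitals mark the exon, and lower case marks the coding bases of the exons on either side.
Atg16l1-201, chr1:87774813-87774869, plus strand: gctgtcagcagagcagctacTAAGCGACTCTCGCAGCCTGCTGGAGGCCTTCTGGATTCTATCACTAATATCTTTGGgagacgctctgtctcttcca

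The division among transcripts varied between libraries for several genes, among them Optn, Tfeb, Atg9a and Ctsl. Optn-202 had 96.4, 0 and 40.0% of the gene's TPM in replicates 1, 2 and 3, and Optn-201 had 0, 95.3 and 49.2%. Tfeb-202 had 81.9, 57.7 and 55.5%, with the highest share in replicate 1. Atg9a-201 had 56.8, 29.2 and 38.0%, and Ctsl-204 had 3.80, 37.2 and 0%. Of the bases of Optn-202, 92.2% are shared with Optn-201, and Tfeb had 415, 337 and 293 estimated counts. The part of either in these swings was not tested. For these genes the shares are given as the tables hold them, without a mean.

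**Figure D5:**
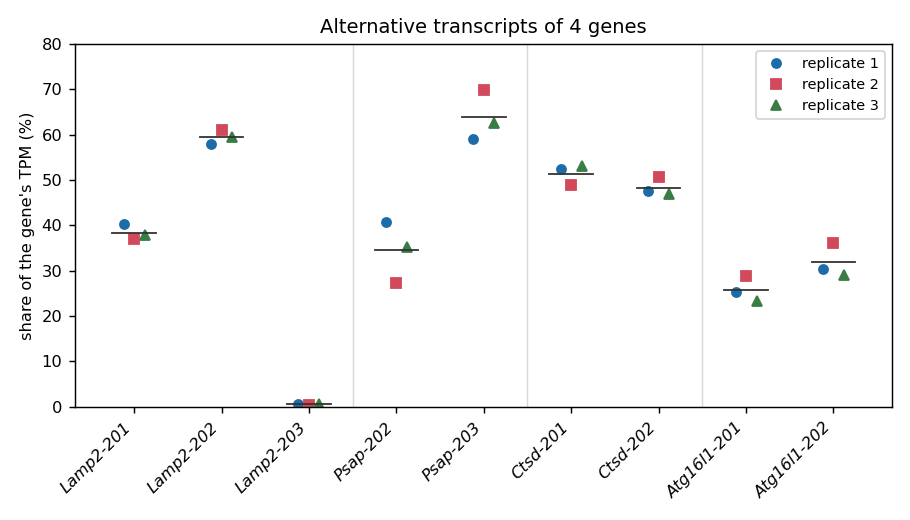
Share of the gene's TPM (%) taken by single protein-coding transcripts of Lamp2, Psap, Ctsd and Atg16l1, with 1 symbol per library and the mean as a line. Lamp2-202 lies near 60% and Lamp2-203 near 0 in each library, while the Psap shares spread by over 10 percentage points.

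Further genes of the same pathways were drawn from 9 lists, 158 genes in all. Of these, 144 reached 1 TPM in every library, and the median level was 41.0 ± 2.01 TPM, beside 44.8 ± 2.38 TPM for the 36 genes. The libraries differed for 77 of 147 tested (52.4%), beside 44.9% of all genes and 55.4% of genes averaging at least 100 counts. Both shares are the background for the counts given per list below.

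In the list of other autophagy core genes, Vmp1 (221 TPM), a scramblase of the endoplasmic reticulum, Bcl2 (124 TPM), which binds beclin 1, and Atg16l2 (67.6 TPM) were highest, and Atg9b (0.620 TPM) lowest. Of 20 tested, 7 differed between libraries (35%), beside 44.9% of all genes tested. Among other cargo receptors, the mitophagy receptor Bnip3l (414 TPM), the ubiquitin-binding Tax1bp1 (234 TPM) and the inner mitochondrial membrane protein Phb2 (159.7 TPM) led, and Wdfy3 (0.120 TPM) was lowest. Of 12 tested, 6 differed. For fusion of autophagosome and lysosome, Rab7 (259.8 TPM), the SNARE Vamp8 (259 TPM) and the tethering subunit Vps16 (207 TPM) were highest, and Epg5 (10.4 TPM) lowest. Of the 15 fusion genes, 11 differed (73.3%), beside 44.9% of all genes tested and 55.4% of genes averaging at least 100 counts. Each of the 11 was highest in replicate 3 under 3 scalings, beside the 16.4% of genes averaging at least 100 counts that were called and highest there.

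Other cathepsins were led by Ctsw (68.1 TPM), known from cytotoxic lymphocytes, Ctso (56.1 TPM) and the asparaginyl protease Lgmn (18.3 TPM), and Ctsg had no count. Of 6 tested, 4 differed (66.7%), beside 44.9% of all genes tested. Cathepsin inhibitors were abundant: Cst7, cystatin F, was at 249 TPM, Cst3, cystatin C, at 154 TPM and Cstb, cystatin B, at 131 TPM, while Stfa1 had no count. Of 5 inhibitors tested, 3 differed. Among other hydrolases, Acp5 (195 TPM), an acid phosphatase, and the mannosidase Man2b1 (149.5 TPM) led, and the galactosidase Gla (5.66 TPM) was lowest. Of 30 tested, 12 differed.

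Laptm5, a lysosomal membrane protein of blood cells, was at 1968 ± 105 TPM, above the mean of 605 TPM for Ctsb. M6pr (259 TPM), a mannose 6-phosphate receptor that delivers hydrolases, and Laptm4a (156 TPM) followed it among other membrane genes, and Lamp5 had no count. Of 24 tested, 18 differed (75%), beside 44.9% of all genes tested. Of the proton pump that acidifies the lysosome, Atp6v1f (323 TPM), Atp6v0e (304 TPM) and Atp6v0c (301 TPM) were highest and Atp6v1b1 (0.0967 TPM) lowest, and 9 of 19 tested differed. In the list of genes that anchor and control TFEB at the lysosome, the Ragulator subunits Lamtor5 (193 TPM), Lamtor2 (167 TPM) and Lamtor1 (126 TPM) led and Tfec (0.197 TPM) was lowest. Of 16 tested, 7 differed.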

How the data were processed

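For each library the authors deposited gene and transcript tables with RSEM's column names, on mm10 with GENCODE M21, per the deposited file lists. The authors deposited estimated counts, which the file headers name expected counts. By RSEM's general method, such counts divide reads that fit several features. The deposited TPM and FPKM values scale them to length and depth. A second deposited table holds whole-number counts for GENCODE M4 genes. The sources used here name no aligner, version or strandedness. With strand unknown, overlapping antisense genes cannot be told apart.

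Levels are means of TPM with the SD over 3 libraries. Library differences were tested with Pearson's chi-square test (2 degrees of freedom) on rounded estimated counts, for genes with at least 30 counts in sum, adjusted by Benjamini-Hochberg, with a threshold of 0.05. Rows naming no gene were left out. Scalings were library totals, TMM (edgeR 4.0.16) and size factors (DESeq2 1.42.0), in R 4.3.3. The test was tested on simulated data. Other software was Python 3.11.15, pandas 2.3.3, scipy 1.17.1 and matplotlib 3.10.9.

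The 36 genes, the other lists and the naming rule were chosen with earlier results of these data known. Named were all 36 genes, the 3 highest and the lowest of each other pathway list, and the 6 called members with the largest ratios between libraries. A gene that this rule names is not reported here, but stays in every count.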

Additional observations from a re-analysis of the deposited data

How the results depend on the processing

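No paired analysis was possible because the 3 libraries form 1 group. The median of the list moved to 35.1 TPM with protein-coding transcripts only, beside 44.8 TPM for whole genes. The log2 ratio of GABARAP over LC3 genes moved to 0.20 with protein-coding transcripts only and to 3.56 in the second gene table, beside 1.13. The number of members differing between libraries was 5 in the second table, beside 18, and 10 to 14 when 1 library was left out. Of all genes tested, 23.2% differed in the second table and 27.7 to 34.0% with 1 library left out, beside 44.9%. The second table has fewer counts, and the cause was not tested. Other scalings, statistics and count filters gave 16 to 19 members, beside 20.1 to 56.9% of all genes tested. The number of members with the promoter motif was 7 with CACGTG, in the whole window and upstream only, beside 3 with TCACGTGA. Members detected were 32 at 5 TPM and 34 or 35 under the other alternatives. Of 8 transcript shares, 6 moved by more than 1 SD with estimated counts in place of TPM. Depth limits Wipi1 and Map1lc3a, which averaged 0.346 and 0.775 CPM, where 3 counts give 0.141 to 0.162 CPM.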
